A study of Mus musculus with 15 samples.

Results

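Transcripts of AMH, of its receptors and of the SMAD proteins that carry its signal were examined in fetal mouse gonads at E15.5. The 8 genes were *Amh*, *Amhr2*, *Bmpr1a*, *Bmpr1b*, *Acvr1*, *Smad1*, *Smad5* and *Smad9*, chosen by name as the known chain from hormone to nucleus. Each was read from the transcript cluster (a set of probes along 1 transcribed region) that carries its symbol alone. All 8 had exactly 1 such cluster, among 30176 genes with a symbol of their own and 65956 clusters in all. The arrays came from 3 groups of 5 whole gonads, taken off the mesonephros, on a C57BL/6 background. The dKO XY gonads were *Amh*-/-; *Inhbb*-/- and so lacked the hormone and the activin B subunit from conception and in every cell. Control XY testes and control XX ovaries were wild-type at both genes. The study's methods state that both genotypes came from crosses of mice singly heterozygous for *Amh* or *Inhbb*. Since 2 genes were removed together, an effect of one cannot be told apart from an effect of the other. The age follows the sample labels. The data statement of the study lists the series under an earlier stage, while its methods give 5 arrays per group at E15.5.

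AMH is a hormone of the TGF-beta family made by Sertoli cells, and it is best known for removing the Müllerian ducts of male fetuses. It binds AMHR2, a type II receptor used by no other known ligand. AMHR2 then engages a type I receptor, BMPR1A (ALK3), ACVR1 (ALK2) or BMPR1B (ALK6), which the BMPs also use. The type I receptor phosphorylates SMAD1, SMAD5 and SMAD9, which enter the nucleus with SMAD4. The fetal ovary does not normally make AMH, and in adults granulosa cells do.

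The deposited values were log2 signals after RMA normalization, and all differences below are in these units. The scale ran up to 19.93, above the limit of 16 of a plain 16-bit scan, so it was stretched by an unstated amount and a difference of 1 unit may be less than 2-fold. Array medians lay between 5.17 and 5.33, and arrays of 1 group correlated at 0.989 to 0.996. Levels of different genes were not set against each other, since clusters differ in their probes. The arrays were made from whole gonads, in which fewer cells of a type and less RNA per cell cannot be told apart. The study's methods call the 5 arrays of a group biological replicates, and the labels do not say which of them shared a litter.

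The promoters of 4 members whose level differed between testis and ovary are shown, each as the 250 bases before the annotated start of the first listed transcript, read along the gene (RefSeq, GRCm38.p6). *Amhr2* lies at chr15:102445117-102445366 on the plus strand, *Bmpr1b* at chr3:141982265-141982514 on the minus strand, *Smad5* at chr13:56702760-56703009 on the plus strand and *Acvr1* at chr2:58566829-58567078 on the minus strand. Capitals mark a match to AAGGTCA, the half-site of NR5A1 (SF1), in *Amhr2* and a match to the SOX sequence AACAAAG in *Bmpr1b*. The letters are shown as a description, and whether a marked stretch acts on its gene was not tested.
Amhr2: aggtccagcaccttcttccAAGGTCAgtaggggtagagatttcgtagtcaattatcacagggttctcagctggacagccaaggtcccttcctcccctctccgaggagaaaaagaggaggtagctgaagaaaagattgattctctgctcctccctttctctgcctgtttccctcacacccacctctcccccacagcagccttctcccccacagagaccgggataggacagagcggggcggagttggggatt
Bmpr1b: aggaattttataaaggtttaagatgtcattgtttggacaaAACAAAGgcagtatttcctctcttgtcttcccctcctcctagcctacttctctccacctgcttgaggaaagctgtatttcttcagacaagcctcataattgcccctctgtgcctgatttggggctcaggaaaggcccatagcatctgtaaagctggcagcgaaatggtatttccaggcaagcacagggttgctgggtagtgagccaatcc
Smad5: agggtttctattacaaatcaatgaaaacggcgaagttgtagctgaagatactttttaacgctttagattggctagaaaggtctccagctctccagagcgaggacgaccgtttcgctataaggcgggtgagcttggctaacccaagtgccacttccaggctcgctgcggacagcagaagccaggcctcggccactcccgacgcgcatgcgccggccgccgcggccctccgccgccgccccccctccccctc
Acvr1: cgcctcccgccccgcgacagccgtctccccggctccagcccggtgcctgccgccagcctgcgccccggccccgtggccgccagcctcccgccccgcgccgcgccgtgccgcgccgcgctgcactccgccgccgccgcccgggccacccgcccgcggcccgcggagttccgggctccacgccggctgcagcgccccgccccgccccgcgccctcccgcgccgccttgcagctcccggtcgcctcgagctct

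The *Amhr2* and *Bmpr1b* promoters held few CpG pairs, with 5 and 1 in 250 bases and a GC content of 55.2% and 46.8%. Those of *Smad5* and *Acvr1* were CpG-rich, with 22 and 46 CpG pairs and a GC content of 60.0% and 85.6%, against a median of 52.4% over all 32851 promoters in the table. Both strands were searched for the NR5A1 half-site AAGGTCA, the SOX sequence AACAAAG, the GATA sequence AGATAA, the GC-rich SMAD1/5 sequence GGCGCC and the SMAD palindrome GTCTAGAC. AAGGTCA stood at -231 to -225 of *Amhr2* and occurred in 4.08% of all promoters. AACAAAG occurred in 5.03%, and it stood in each of the 3 annotated promoters of *Bmpr1b*; the last 2 overlap and share their match. GGCGCC, found in 9.59%, stood in the promoters of *Bmpr1a* and *Smad9* and in the second of *Smad5*, and AGATAA, found in 9.99%, stood in the third of *Smad5*. GTCTAGAC stood in none of the members' promoters. Of the 8 members 7 had a promoter in the table, and that of *Amh* is not shown. A match is a description of these letters only.

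Between dKO XY and control XY, 2 of the 8 members were called, *Amh* lower and *Amhr2* higher. A call needed a p below 0.05 after Benjamini-Hochberg adjustment over the whole array (limma, two-sided) and a difference of 1 unit or more, which 2.19% of all clusters met in this comparison. At the adjusted p alone 4 members passed, against 10.4% of all clusters: *Amhr2* and *Smad5* rose, and *Amh* and *Acvr1* fell. Between control XX and control XY, 3 members were called (5.76% of all clusters), and 6 passed the adjusted p alone (24.2%). Between dKO XY and control XX none was called by limma or by the one-way analysis of variance of the study's methods, in a comparison in which 2.5% of all clusters were. By limma 4 members passed the adjusted p alone there, all lower in dKO XY (7.51% of all clusters passed in that direction and 15.1% in either), and the same number had an unadjusted p below 0.05. In the text below, rose and fell mean past the adjusted p.

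**Figure D1:**
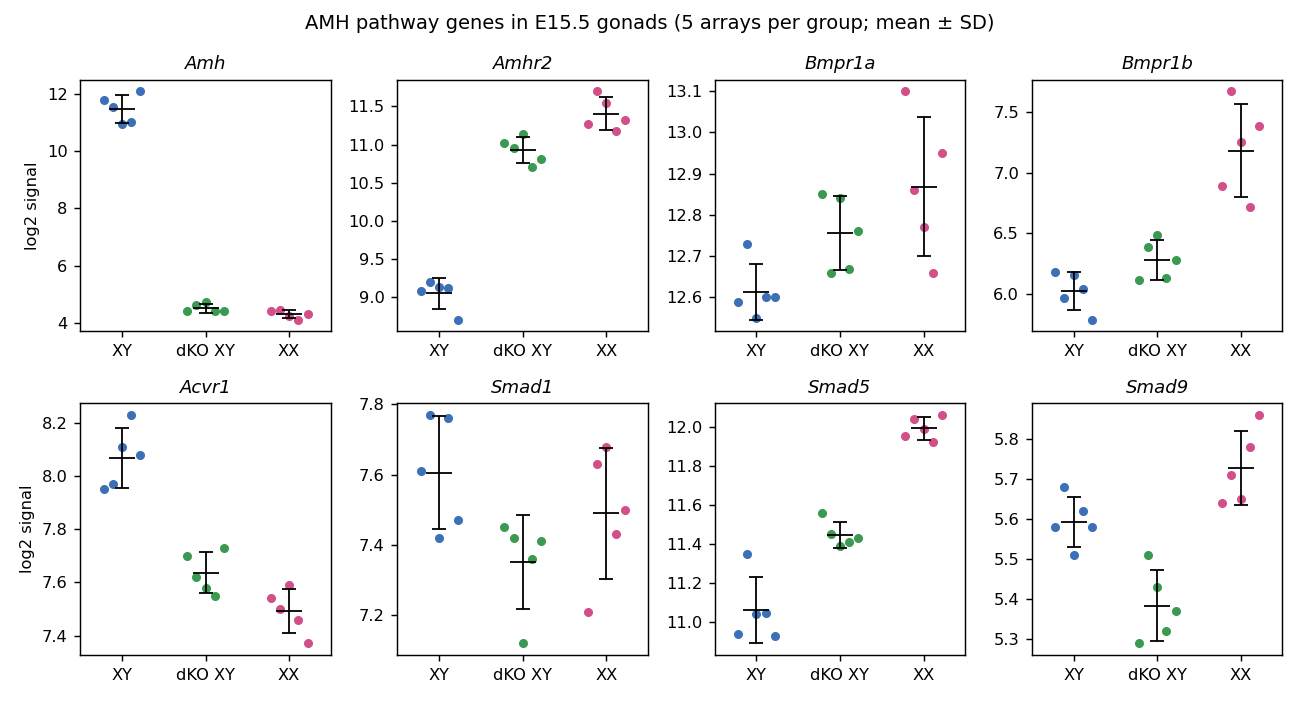
The deposited log2 signal of the 8 genes on each array (points, replicates 1 to 5 from left to right) in testes (control XY), dKO XY gonads and ovaries (control XX), with mean ± SD in black and a separate vertical scale for each gene. *Amh* lies between 10.94 and 12.09 in control XY and at most at 4.72 elsewhere, and *Amhr2* in dKO XY (10.70 to 11.14) lies just below control XX (11.18 to 11.70).

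*Amh* itself was at the level of the ovary in the dKO XY gonads. The control XY arrays read 11.79, 11.52, 10.94, 11.01 and 12.09. The dKO XY arrays read 4.40, 4.61, 4.72, 4.42 and 4.40, and the control XX arrays 4.42, 4.46, 4.25, 4.11 and 4.30. All 5 testes thus stood far above all 10 other gonads, which overlapped. The difference of dKO XY from control XY was -6.96 ± 0.18 (SE; adjusted p = 2.5e-12), and that of control XX from control XY was -7.16 ± 0.18 (adjusted p = 1.2e-13). dKO XY and control XX differed by 0.2, with a 95% interval of -0.17 to 0.58 (adjusted p = 0.55). The mean of dKO XY was above only 15.9% of the array's 5222 negative control probe sets, so the size of the fall is set by the floor of the array.

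No measured gene beside *Amh* was called. *Amh* lies in a gene-dense stretch of chromosome 10. In the order of the RefSeq table (GRCm38.p6) *Plekhj1* and *Sf3a2*, a subunit of the splicing factor SF3a, precede it, and *Jsrp1* and *Oaz1* follow. *Sf3a2* differed by -0.28 ± 0.13 between dKO XY and control XY (adjusted p = 0.2), *Plekhj1* by -0.15 ± 0.12 (adjusted p = 0.57) and *Jsrp1* by -0.09 ± 0.08 (adjusted p = 0.56). *Oaz1* had no cluster of its own. Of 20 genes within 10 places on either side 18 were measured, with 2 higher and 3 lower at an unadjusted p below 0.05. None of the 18 was called by limma or by the methods' analysis of variance. Limma called 2.19% of all clusters, so an absence of calls among so few genes says little. At the adjusted p alone *Ap3d1* and *Gadd45b* rose and *Mob3a* fell, where 10.4% of all clusters passed in either direction. The median difference of the 18 genes was 0.02, against 0.01 over all clusters.

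**Figure D2:**
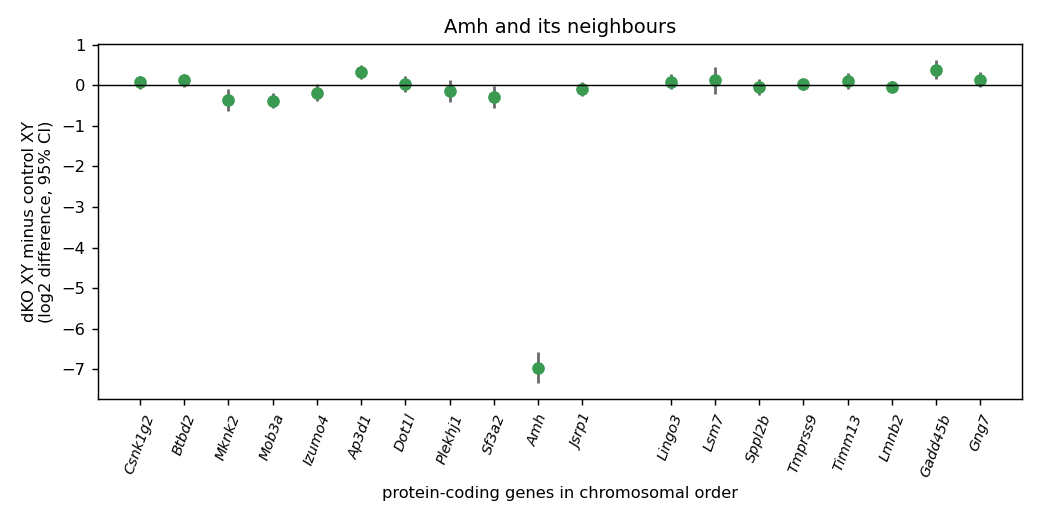
Log2 difference of dKO XY from control XY (points, with 95% confidence intervals) for *Amh* and the measured protein-coding genes within 10 places on either side, in chromosomal order. *Amh* lies at -6.96, and its measured direct neighbours *Sf3a2* and *Jsrp1* at -0.28 and -0.09.

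*Amhr2*, the receptor particular to AMH, rose in the gonads that lacked the hormone. The control XY arrays read 9.08, 9.20, 9.13, 9.12 and 8.70, and the dKO XY arrays 11.02, 10.95, 11.14, 10.70 and 10.81. The control XX arrays read 11.27, 11.70, 11.55, 11.18 and 11.32. No 2 groups overlapped, and the dKO XY arrays lay close under the ovaries. The rise over control XY was 1.88 ± 0.12 (adjusted p = 9.3e-08), and control XX stood 2.36 ± 0.12 above control XY (adjusted p = 4.1e-10). dKO XY remained 0.48 below control XX, with a 95% interval of -0.73 to -0.23 for the difference (adjusted p = 0.01). On the span from the testis mean to the ovary mean, dKO XY stood at 79.6%, with single arrays from 70.2% to 88.6%. Replicate 5 of control XY was the lowest array, and in all settings tried the rise lay between 1.79 and 1.93.

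The genes whose 15 values ran closest to those of *Amhr2*, after the mean of each gene was subtracted, were *Myo5b*, *Parvb*, *Rnf213*, *Fndc5* and *Dsc2*, out of 19674 genes with an established symbol. Their root mean square distance from *Amhr2* was 0.14, 0.16, 0.2, 0.2 and 0.22 units. *Myo5b*, a motor protein of membrane recycling, had means of 7.81 in control XY, 9.55 in the dKO XY gonads and 10.07 in control XX. *Parvb*, an adaptor of integrin adhesions, had means of 7.04, 8.74 and 9.52 in the same order. All 5 genes were selected for closeness to *Amhr2*, so their sharing of its group order follows from the selection. In *Dsc2* the dKO XY and control XX arrays overlapped (means 8.45 and 8.53, adjusted p = 0.72), unlike those of *Amhr2*. Of *Amh*, the closest genes were *Ccl17*, a chemokine, and *Hsd17b1*, an enzyme of sex steroid synthesis, at distances of 0.98 and 1.21, followed by *Sel1l3*, *Piwil4* and *Serpina5* at 1.93 to 1.97. These distances are not scaled to the size of a gene's change, so they cannot be compared with those from *Amhr2*. Control XX differed from control XY by -7.16 for *Amh* and by 2.36 for *Amhr2*.

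**Figure D3:**
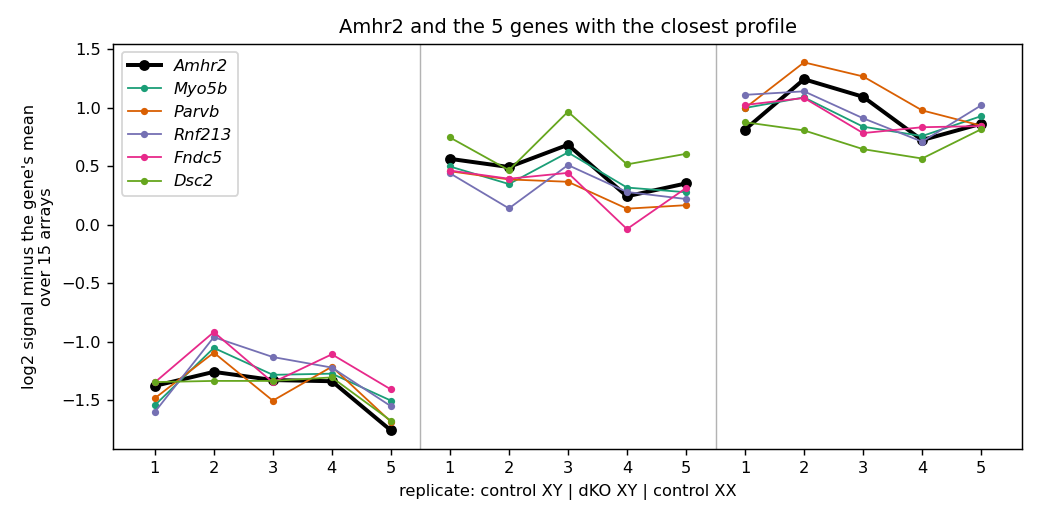
Log2 signal of *Amhr2* (black) and of the 5 genes with the closest profile on the 15 arrays, each minus its own mean over all arrays, with replicates 1 to 5 of the testes, the dKO XY gonads and the ovaries from left to right. All 6 genes are lowest on the 5 control XY arrays. Root mean square distances from *Amhr2* are 0.14 to 0.22.

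Markers of some cell types moved with *Amhr2*, which supporting cells of both sexes and cells around the ducts are known to express. The mean of 11 granulosa cell markers lay at 6.79 to 6.98 on the control XY arrays, 7.97 to 8.36 in dKO XY and 9.39 to 9.63 in control XX. Of the 11, 7 were called up in dKO XY against control XY, where 374 of all 65956 clusters were. The mean of 12 Sertoli cell markers lay at 9.31 to 9.63, 8.69 to 9.04 and 5.93 to 6.3. Its members went both ways between dKO XY and control XY, with 3 higher and 5 lower at the adjusted p and a median difference of -0.18. Over all clusters 10.4% passed the adjusted p in either direction there, and 1070 of 65956 were called lower. *Cldn11*, a tight junction protein, was called up (1.63 ± 0.17), and *Hsd17b1* (-4.28 ± 0.25), *Hsd17b3* (-2.23 ± 0.23) and *Fshr* (-1.67 ± 0.19) were called down. The mean of 4 measured markers of interstitial progenitors lay at 11.73 to 12.02 in control XY, 9.94 to 10.7 in dKO XY and 9.61 to 10.23 in control XX. All 4 fell in dKO XY against control XY, and *Tcf21*, *Wnt5a* and *Dlk1* were called, beside the same shares over all clusters. The mean of 9 surface epithelium markers lay at 7.68 to 8.2, 8.46 to 8.9 and 8.78 to 9.12. Array means of control XY and dKO XY overlapped for germ cell markers (11.23 to 12.24 and 11.73 to 12.57). They also overlapped for fetal Leydig cell markers (16.03 to 16.59 and 15.67 to 16.21) and erythroid markers (8.55 to 9.91 and 8.43 to 10.05). At the adjusted p 1 of 6 germ cell markers rose in dKO XY against control XY, and it was called. In the same comparison 1 of 4 measured fetal Leydig cell markers fell and 0 of 2 measured erythroid markers passed. *Foxl2*, which defines granulosa cells, was called higher in dKO XY, but its control XY mean of 4.13 ± 0.19 was close to the median of 3.58 of the background probes, so the size of its rise is uncertain. Of 10 measured markers of mesonephros and Müllerian duct only *Emx2*, which the gonad itself also expresses, was called. *Pax2* (means 4.04, 4.01 and 3.96 in testis, dKO XY and ovary) and *Wnt7a* (4.59, 4.65 and 4.63) were low in every group. The part of these shifts in the rise of *Amhr2* was not tested. Nor was the part of the lower interstitial markers in the falls of *Acvr1*, *Acvrl1*, *Acvr1b* and *Bmpr2* given below.

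The type I receptors took different courses. *Acvr1* was lower in dKO XY, at 7.70, 7.62, 7.58, 7.55 and 7.73 against 7.95, 7.97, 8.11, 8.23 and 8.08 in control XY. The control XX arrays read 7.54, 7.50, 7.59, 7.46 and 7.37. Every dKO XY array lay under every testis, and the dKO XY and ovary arrays overlapped. *Acvr1* fell by 0.43 ± 0.07 in dKO XY (adjusted p = 0.00097) and was 0.58 ± 0.07 below control XY in control XX (adjusted p = 1.1e-05). Between dKO XY and control XX it differed by 0.14, with a 95% interval of -0.01 to 0.3.

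*Bmpr1b* did not pass the test against the testis and stayed below the ovary. The dKO XY arrays read 6.12, 6.39, 6.49, 6.13 and 6.28, and the control XY arrays 6.18, 5.97, 6.16, 6.04 and 5.79. The control XX arrays read 6.89, 7.67, 7.25, 6.72 and 7.38. The testis and dKO XY arrays overlapped, and every ovary lay above both. dKO XY differed from control XY by 0.25, with a 95% interval of -0.07 to 0.57 (adjusted p = 0.37), and lay 0.9 below control XX (difference -0.9 ± 0.15, adjusted p = 0.00045). Control XX stood 1.15 ± 0.15 above control XY (adjusted p = 1.9e-05). Without replicate 4 of control XX the difference between dKO XY and control XX was -1.02, which would be a call. Means of *Bmpr1b* in control XY and dKO XY were above only 51.6% of the negative control probe sets or fewer, so signal there was weak.

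*Bmpr1a*, the type I receptor needed for duct regression in mice, did not pass the test between dKO XY and either control. Its means were 12.61 ± 0.07 in control XY, 12.76 ± 0.09 in the dKO XY gonads and 12.87 ± 0.17 in control XX (SD, n = 5 each). The dKO XY arrays (12.66 to 12.85) overlapped those of both controls. dKO XY differed from control XY by 0.14, with a 95% interval of -0.03 to 0.32 (adjusted p = 0.34). Control XX stood 0.26 ± 0.08 above control XY (adjusted p = 0.03), and this passed no longer without any one of 7 of the 10 control arrays: all control XY arrays but replicate 2, and replicates 1, 2 and 5 of control XX (adjusted p = 0.051 to 0.079).

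Of the 3 receptor-activated SMADs, *Smad5* rose and *Smad1* and *Smad9* did not pass the test between dKO XY and control XY. The *Smad5* arrays read 11.56, 11.45, 11.39, 11.41 and 11.43 in dKO XY and 10.94, 11.35, 11.04, 11.05 and 10.93 in control XY. The control XX arrays read 11.95, 12.04, 11.99, 11.92 and 12.06. No 2 groups overlapped, with dKO XY between the controls. *Smad5* rose by 0.39 ± 0.08 in dKO XY (adjusted p = 0.0044) and remained 0.54 ± 0.08 below control XX (adjusted p = 0.00012). Replicate 2 of control XY was the highest testis, and without it the rise was 0.46 and the difference of control XX from control XY went from 0.93 to 1.0, which would be a call.

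*Smad9*, also called SMAD8, was lower in dKO XY than in the ovary. The dKO XY arrays read 5.29, 5.51, 5.43, 5.32 and 5.37, and the control XX arrays 5.64, 5.71, 5.65, 5.78 and 5.86. The control XY arrays read 5.58, 5.68, 5.51, 5.62 and 5.58. Every dKO XY array lay below every testis, although the nearest values are equal at the digits shown, and the testes overlapped the ovaries. *Smad9* differed by -0.34 ± 0.07 between dKO XY and control XX (adjusted p = 0.0018) and by -0.21 ± 0.07 between dKO XY and control XY (adjusted p = 0.057). The latter passed under 4 alternatives, with adjusted p from 0.024 to 0.13 over all of them, and one of the 4 was the fit without replicate 2 of dKO XY (adjusted p = 0.036). Signal of *Smad9* was weak, with the dKO XY mean above only 32.2% of the negative control probe sets.

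*Smad1* passed the test in no comparison. Its means were 7.61 ± 0.16 in control XY, 7.35 ± 0.13 in the dKO XY gonads and 7.49 ± 0.19 in control XX, and all 3 groups overlapped. The largest difference was that of dKO XY from control XY, -0.25 with a 95% interval of -0.47 to -0.04 (adjusted p = 0.14).

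**Figure D4:**
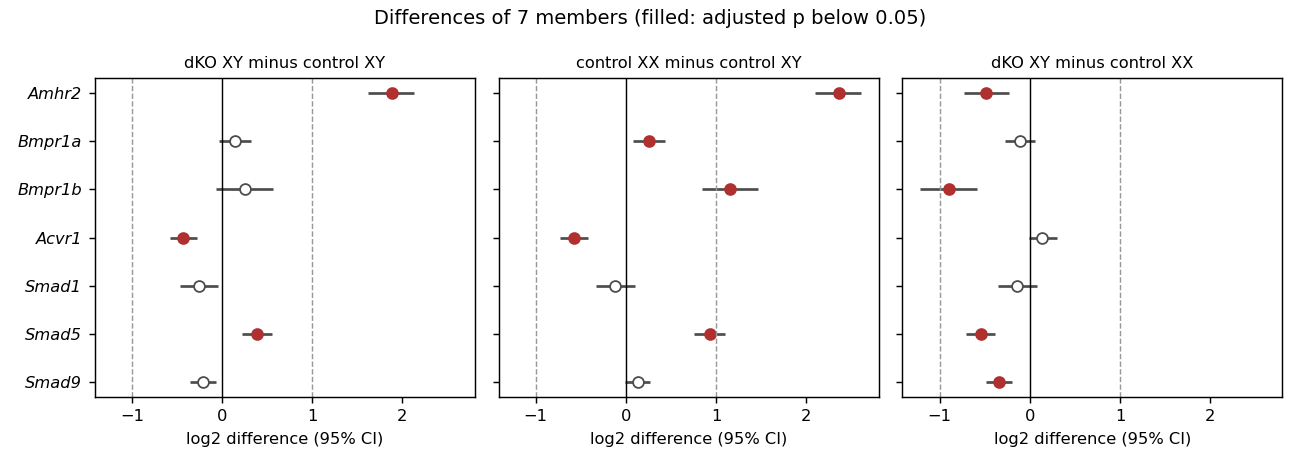
Log2 differences with 95% confidence intervals for the 7 members other than *Amh* in the 3 comparisons. Filled points have a limma adjusted p below 0.05, and dashed lines mark 1 unit. *Amhr2* is at 1.88 between dKO XY and control XY, and no filled point lies above 0 between dKO XY and control XX.

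Set side by side, the 5 members other than the deleted *Amh* that differed between testis and ovary stood at different places in dKO XY. On the span from the control XY mean to the control XX mean, *Amhr2* was at 79.6% and *Acvr1* at 75.0% (single arrays 58.1% to 90.0%). *Bmpr1a* was at 56.4%, with single arrays spread from 18.9% to 93.6%. *Smad5* was at 41.5% (35.0% to 53.8%) and *Bmpr1b* at 21.9% (7.83% to 39.6%). These shares use the same control arrays for all genes and are given as a description.

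Some genes known as direct targets of SMAD1/5/9 were higher in the ovary than in both XY groups. Of 11 listed and measured, 7 passed between the controls, against 24.2% of all clusters. Of these, 6 rose from control XY to control XX at the adjusted p: *Id1*, *Id2* and *Id3*, inhibitors of helix-loop-helix factors, the homeobox genes *Msx1* and *Msx2*, and *Bambi*, a decoy receptor. *Smad7*, an inhibitory SMAD, fell, and *Id4*, *Hey1*, *Atoh8* and *Smad6* did not pass. Between dKO XY and control XY none rose and *Smad7* alone fell (limma), where 10.4% of all clusters passed in either direction. At an unadjusted p below 0.05 1 gene was higher and 2 were lower. The methods' analysis of variance gave the same counts of 0 and 1 at the adjusted p. Between dKO XY and control XX the 6 genes were all lower in dKO XY, where 7.51% of all clusters were lower. The median difference of the list was -0.03, 0.61 and -0.5 in dKO XY against control XY, control XX against control XY and dKO XY against control XX, beside 0.01, -0.01 and 0.02 over all clusters.

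*Id2* showed this most widely. It lay at 11.27 to 12.5 (median 12.07) in control XY, 11.34 to 12.38 (median 11.81) in the dKO XY gonads and 13.72 to 14.44 (median 14.07) in control XX. The first 2 groups overlapped throughout, and every ovary stood above both. dKO XY differed from control XY by -0.18 ± 0.23 (adjusted p = 0.75) and from control XX by -2.22 ± 0.23 (adjusted p = 4.3e-06). *Id3* differed by -0.05 ± 0.1 and -0.8 ± 0.1, and *Msx2* by -0.06 ± 0.15 and -1.01 ± 0.15. Testes had a mean *Msx2* signal of 5.34 and dKO XY gonads one of 5.28. For *Msx1* these means were 4.75 and 5.2. All 4 lay below 6.23, the median of the negative control probe sets, so signal there was weak. For *Msx1* and *Msx2* the lack of a pass between the XY groups therefore says little. *Id1* was the member nearest to passing between dKO XY and control XY, at 0.38 ± 0.13 (adjusted p = 0.07). It passed after a second quantile normalization, among clusters above the median level, without dKO XY replicate 5 and without replicate 1 of control XY (adjusted p = 0.029, 0.046, 0.048 and 0.05). *Bambi*, at -0.5 ± 0.15 between dKO XY and control XX (adjusted p = 0.037), lost its pass without any one of 6 arrays, dKO XY replicates 3, 4 and 5 and control XX replicates 2, 3 and 5 (adjusted p = 0.063 to 0.1). *Smad7* fell by 0.69 ± 0.08 in dKO XY (adjusted p = 2.3e-05), to within 0.15 of the ovary.

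**Figure D5:**
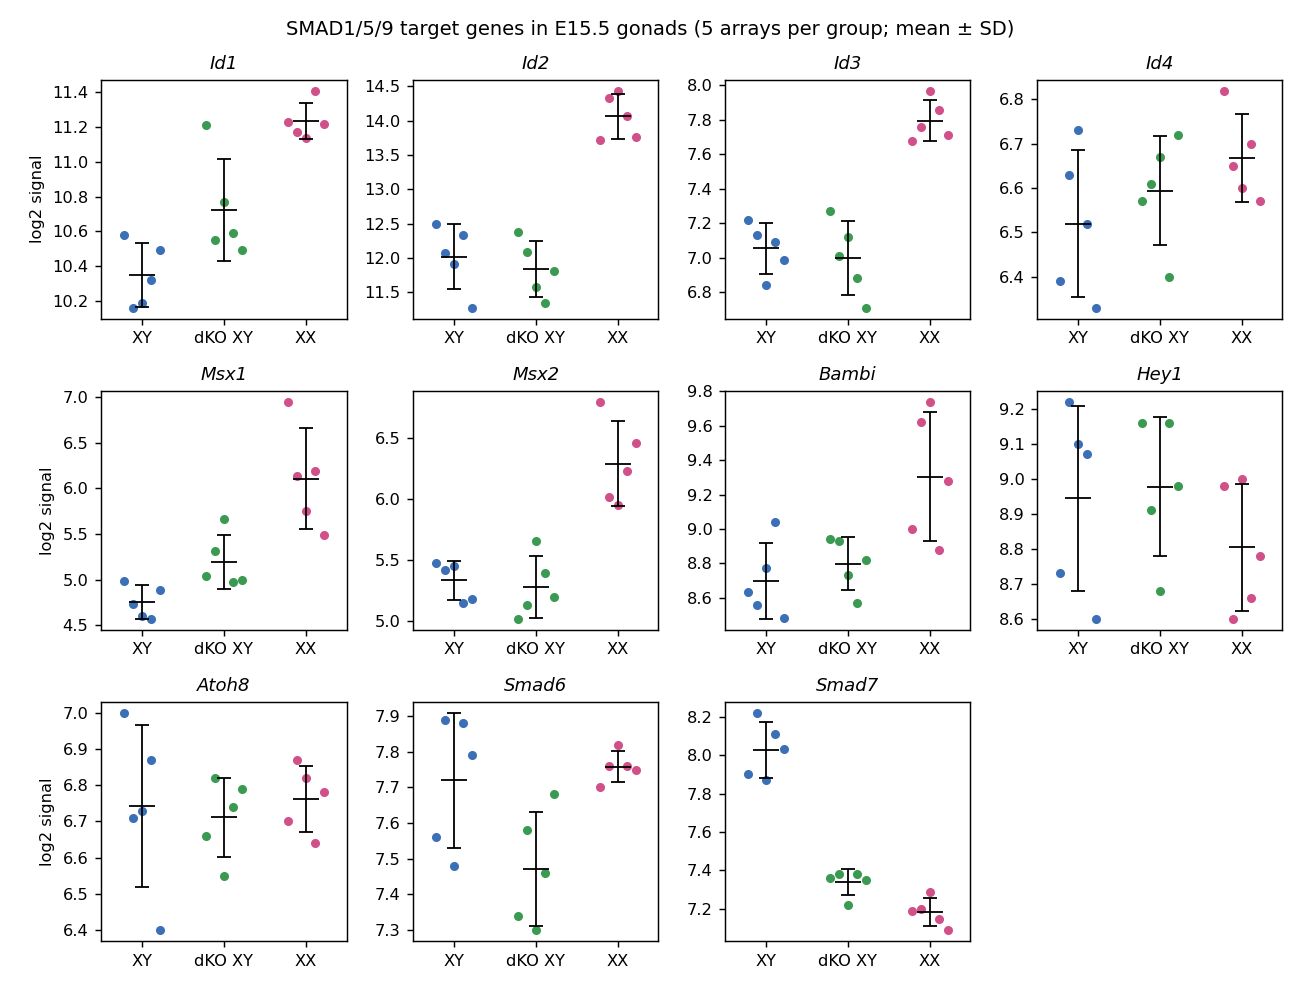
Log2 signal on each array (points, replicates 1 to 5 from left to right) of 11 SMAD1/5/9 target genes in testes, dKO XY gonads and ovaries, with mean ± SD in black. *Id2* in control XX lies at 13.72 or above and at 12.5 or below in both XY groups, and *Smad7* in dKO XY lies beside control XX.

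Among 12 other receptors of the TGF-beta family, *Acvrl1* (ALK1), best known from blood vessels, was the one with a call in dKO XY against control XY. It fell from 8.67 ± 0.15 to 7.46 ± 0.09 (difference -1.2 ± 0.1, adjusted p = 1.6e-06), the mean of control XX. At the adjusted p alone 1 rose and 5 fell, where 10.4% of all clusters passed in either direction. Beside *Acvrl1*, the largest fall was that of *Acvr1b*, an activin receptor (-0.53 ± 0.1, adjusted p = 0.0031). The rise was that of *Acvr2a*, a type II activin receptor (0.35 ± 0.1, adjusted p = 0.032), and it was lost without any one of 5 arrays (adjusted p = 0.074 to 0.089): dKO XY replicates 1 and 3 and control XY replicates 1, 3 and 5. *Bmpr2*, the type II receptor for BMPs, fell by 0.31 ± 0.08 (adjusted p = 0.017), while the 2 controls differed by -0.1 ± 0.08 (adjusted p = 0.44). The mean of 6 endothelial markers lay at 9.68 to 9.92 in control XY and 9.75 to 10.02 in dKO XY, and none of the 6 passed the test between them by limma (2 higher and 1 lower at an unadjusted p below 0.05, 0 by the methods' analysis of variance). Of 5 other SMADs *Smad3*, which carries activin signals, rose by 0.38 ± 0.11 (adjusted p = 0.029), and this was lost without any one of 7 arrays (adjusted p = 0.051 to 0.08): dKO XY replicates 1, 2 and 4 and control XY replicates 1, 3, 4 and 5. *Smad4*, the partner of all receptor-activated SMADs, differed by -0.17 ± 0.08 (adjusted p = 0.27).

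BMPs share the type I receptors with AMH. Of 14 such ligands, 2 rose in dKO XY at the adjusted p and none was called by limma or the methods' analysis of variance (3 higher and 1 lower at an unadjusted p below 0.05). Over all clusters 10.4% passed the adjusted p against control XY in either direction. *Bmp7* rose to 8.68 ± 0.14 from 7.86 ± 0.28 in control XY (0.82 ± 0.12, adjusted p = 0.00043) and stood 0.73 ± 0.12 above control XX too (adjusted p = 0.00056). *Bmp2*, a ligand of the fetal ovary, rose by 0.7 ± 0.15 (adjusted p = 0.0049) and stayed 1.03 ± 0.15 below control XX. Its means of 5.07 in control XY and 5.77 in dKO XY lay below the negative control median of 6.23, so signal there was weak. *Bmp5* had means of 9.09 in control XY, 8.68 in the dKO XY gonads and 7.03 in control XX, and dKO XY differed from control XX by 1.65 ± 0.21 (adjusted p = 4.2e-05). Of 12 measured secreted inhibitors of BMPs and activins, *Fst* (follistatin) was called up in dKO XY (2.27 ± 0.21 above control XY) and *Sostdc1* called down (-1.94 ± 0.14, adjusted p = 5.3e-07). Both moved in the direction of the ovary. At the adjusted p alone 4 inhibitors fell, *Sostdc1* among them. *Chrdl1* fell by 0.47 ± 0.13 and did not pass against control XX (0.25 ± 0.13, adjusted p = 0.26). Its means of 6.02 in control XY and 5.55 in dKO XY also lay below 6.23. *Fstl1* (-0.97 ± 0.16, adjusted p = 0.00099) had a mean of 13.21, beside 13.52 in control XX, and did not pass there either (adjusted p = 0.26). *Bmper* (-0.44 ± 0.1, adjusted p = 0.01) fell to 6.59, below both control XY (7.03) and control XX (6.92). Against control XX it differed by -0.33 ± 0.1 (adjusted p = 0.04). Of 5 activin and inhibin subunits, *Inhbb*, the other targeted gene, and *Inhba* were called lower in dKO XY. *Inhbb* fell by 1.26 ± 0.08 (adjusted p = 6.8e-08), and whether its probes lie in the deleted part is not given in the sources used here. *Inhba* fell by 1.06 ± 0.12, by 0.96 without dKO XY replicate 3 and by 0.98 without replicate 1 of control XY, which would be no calls.

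Of 8 measured transcription factors known to act on the *Amh* promoter, 5 were called above the ovary in dKO XY (*Sox9*, *Sox8*, *Nr5a1*, *Nr0b1* and *Dmrt1*). In that comparison 803 of all 65956 clusters were called higher. *Sox9*, which starts *Amh* transcription, had means of 9.99 ± 0.13 in control XY, 9.9 ± 0.1 in the dKO XY gonads and 6.95 ± 0.08 in control XX (dKO XY against control XY: -0.1 ± 0.08, adjusted p = 0.55). *Nr5a1* differed by 0.11 ± 0.08 (adjusted p = 0.51), and *Sox8* fell by 0.74 ± 0.12 (adjusted p = 0.00075). *Nr0b1* (DAX1) and *Wt1* were called higher, *Nr0b1* by 2.51 ± 0.17 (adjusted p = 2.6e-07) to a level above both controls and *Wt1* by 1.03 ± 0.13 (adjusted p = 7.8e-05). Without control XY replicate 1 or 5 the *Wt1* difference was 0.96 or 0.98, which would be no call. *Gata4* rose by 0.37 ± 0.08 (adjusted p = 0.0092).

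AMH is cut into its active form by proprotein convertases. Of 4 measured, *Pcsk6* (PACE4) was called, with a rise of 1.84 ± 0.1 from 9.87 ± 0.13 to 11.71 ± 0.15 (adjusted p = 2.9e-08), beside 11.4 ± 0.19 in control XX. *Pcsk5* differed by -0.26 ± 0.09 (adjusted p = 0.076) and stayed 1.55 ± 0.09 above control XX. Of 11 measured intracellular regulators of SMADs none had a call between dKO XY and control XY (limma and the methods' analysis of variance). Over all clusters limma called 2.19% there. At its adjusted p 1 regulator rose and 2 fell, where 10.4% of all clusters passed in either direction. At an unadjusted p below 0.05 2 were higher and 2 lower. *Nedd4l*, a ubiquitin ligase, fell by 0.65 ± 0.13 (adjusted p = 0.0046). *Smurf2*, a ubiquitin ligase for SMAD1 and SMAD5, differed by 0.12 ± 0.06 (adjusted p = 0.31) and was 0.66 ± 0.06 above control XY in control XX (adjusted p = 8.4e-07).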

How the data were processed

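RNA of whole E15.5 gonads was amplified, labelled and hybridized to Affymetrix Clariom D mouse arrays, 1 array per sample. The authors made the deposited log2 values with the manufacturer's software by RMA, and the genome build and annotation behind them are not given in the sources used here. Groups came from the sample labels, which gave no scan date or batch. Of 72688 entries 6732 control probe sets were left out. Symbols came from the platform annotation, brought up to date with RefSeq: 30638 clusters had 1 symbol, 2176 several and 33142 none. For a gene with several clusters the one with the highest mean was kept.

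All 15 arrays and 65956 clusters entered 1 limma fit (limma 3.58.1, R 4.3.3, eBayes) with a mean for each group, and the fit was checked on simulated data. Errors are SE of differences and SD of levels over 5 arrays. Arrays count no molecules, so the number of arrays limits the precision. Named genes were the members, of each list called genes and up to 3 others with the largest statistics, the 5 nearest profiles, and 2 neighbours on each side. Not every called gene was named, and between dKO XY and control XY *Acvr2a* did not have one of the 3 largest statistics. *Id3*, *Smad4*, *Smurf2*, *Bmp5*, *Id4*, *Hey1*, *Atoh8*, *Smad6*, *Foxl2*, *Pax2*, *Wnt7a* and the farther neighbours of *Amh* may fall outside that rule and were chosen after their values were seen. The members and all gene lists were chosen with earlier results of these data known. Alternatives were other normalizations, filters, fits, the methods' one-way analysis of variance, a replicate block and each array left out. Promoters came from a RefSeq table (GRCm38.p6).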

Additional observations from a re-analysis of the deposited data

Results flagged for a closer look

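Groups of 5 arrays were searched for 1 array far from the others by Dixon's test at the 95% level, in the 24 combinations of 8 genes and 3 groups. *Amhr2* in control XY replicate 5 was 8.70, below the 9.08 to 9.20 of the other testes, with a gap of 0.75 of the whole range. *Smad5* in control XY replicate 2 was 11.35, above the 10.93 to 11.05 of the others, with a gap of 0.71 of the range. Chance flags about 1 in 20 groups, and 2 of 24 were flagged. Without the array concerned, *Amhr2* rose in dKO XY by 1.79 rather than 1.88 and *Smad5* by 0.46 rather than 0.39, and both still passed the test.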

How the results depend on the processing

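Over 23 alternative settings the 24 differences of the 8 members gave 552 values, of which 539 kept their direction and side of the adjusted p, 5 passed newly, 8 no longer passed and none changed direction. The number of members called stayed at 2 between dKO XY and control XY and ran from 3 to 4 between the controls and from 0 to 1 between dKO XY and control XX when 1 array was left out, where the 1 was *Bmpr1b* without control XX replicate 4. Counts of members past the adjusted p alone ran from 4 to 5, 5 to 6 and stayed at 4. *Smad9* passed between dKO XY and control XY among clusters above the median level, with array weights and by the methods' analysis of variance (adjusted p = 0.038, 0.03 and 0.024), and between the controls after a second quantile normalization (0.036). *Bmpr1a* between the controls no longer passed with only those groups fitted (adjusted p = 0.056).

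Arrays with the same replicate number did not deviate together (correlations of -0.19 to -0.041 between dKO XY and control XY, -0.11 to 0.19 between the controls and -0.17 to 0.16 between dKO XY and control XX), so the numbers pair nothing known. With the replicate number as a block, *Amhr2* still differed by 1.88 between dKO XY and control XY, the members called stayed at 2, 3 and 0, and those past the adjusted p at 4, 6 and 4. *Acvr2a* and *Smad3* between dKO XY and control XY and *Bambi* between dKO XY and control XX no longer passed with it (adjusted p = 0.051, 0.055 and 0.063). Over all clusters the block gave 369 higher and 1052 lower calls between dKO XY and control XY, against 374 and 1070. Lower calls there were 674 without control XY replicate 5.

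For 62 other named genes 4278 values were computed, of which 4152 were the same, 18 passed newly and 83 no longer passed. In 25 the sign turned, none of them past the test. After a second quantile normalization *Id3* differed by 0.02 and *Atoh8* by 0.04 between dKO XY and control XY and *Bmpr2* by 0.09 between the controls. *Acvrl1* between dKO XY and control XX was -0.02 with array medians centred and -0.01 with array weights, as was *Atoh8* between the controls. With 1 array left out, *Acvrl1* ran from -0.05 to 0.07 there, *Bmp7* from -0.01 to 0.17, *Atoh8* from -0.07 to 0.08 and *Smad6* from -0.02 to 0.08 between the controls, and between dKO XY and control XY *Dmrt1* ran from -0.01 to 0.19, *Id3* from -0.12 to 0.02, *Atoh8* from -0.11 to 0.04, *Hey1* from -0.05 to 0.11 and *Msx2* from -0.15 to 0.01. The causes were not tested. No member had a second cluster, so another cluster of the same gene could not be tried.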
